A study of Mus musculus with 6 samples.

Results

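Lymphatic endothelial cells line the sinuses and lymph vessels of a lymph node, and 10 genes that mark them or are prominent in them were followed here: Lyve1, Prox1, Flt4, Stab1, Stab2, Reln, Mmrn1, Ackr2, Pdpn and Foxc2. They were taken by gene symbol from a table of 50559 genes, and all 10 had reads in all 6 libraries. The libraries came from mouse inguinal lymph nodes, 3 labelled Naringin and 3 labelled Control. Naringin, the bitter flavanone glycoside of grapefruit, was mixed into the food at 200 mg/kg per day. The sources used here do not state what the Control mice ate, how long feeding lasted, or the strain, sex and age of the animals. Nor do they say whether the libraries of one group stem from different animals, so p-values between the groups measure the spread between these samples alone, which may be technical.

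As background, lymph enters a node through afferent vessels, runs through sinuses lined by lymphatic endothelium and resident macrophages, and leaves through efferent vessels. The transcription factor Prox1 sets and keeps the lymphatic identity of these cells, and the growth factor Vegfc, acting through the receptor Flt4, drives their growth. The sinus lining also takes up hyaluronan and other spent molecules through scavenger receptors, and it clears or presents chemokines. Several of the 10 genes are not restricted to this lining: Lyve1 and Stab1 are also made by some macrophages, Pdpn by reticular stromal cells, and Mmrn1 by megakaryocytes.

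Values are given as CPM, the reads on a gene per 1000000 gene-assigned reads of its library. The libraries held 14276848 to 14976422 such reads with naringin and 13074180 to 14963386 in Control. The node itself was evident: the T cell gene Cd3e lay at 156 to 248 CPM in Naringin and 207 to 231 CPM in Control. Control 3 stood apart from the other libraries, with a chi-square per degree of freedom of 39.3 to 61.6 in the pairs that included it, against 7.68 to 27.7 in the other pairs. Prox1 was covered by 87 to 394 reads in Naringin and 146 to 258 reads in Control, so the lymphatic identity gene was present in each library.

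The 10 genes varied together from library to library, Pdpn and Ackr2 less closely, and that shared order did not separate Naringin from Control. Their summed level was 544, 329 and 160 CPM in Naringin 1, 2 and 3, against 199.9, 323 and 371 CPM in Control 1, 2 and 3. Naringin 1 held the highest value of 9 of the 10 genes. Naringin 3 held the lowest value of 8 of them and Control 1 that of the other 2. For 7 of the 10 genes both extremes thus lay inside the Naringin group, and Lyve1, Ackr2 and Reln had 1 extreme in Control. With whole-node RNA, fewer lymphatic endothelial cells and less RNA per cell cannot be told apart.

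**Figure D1:**
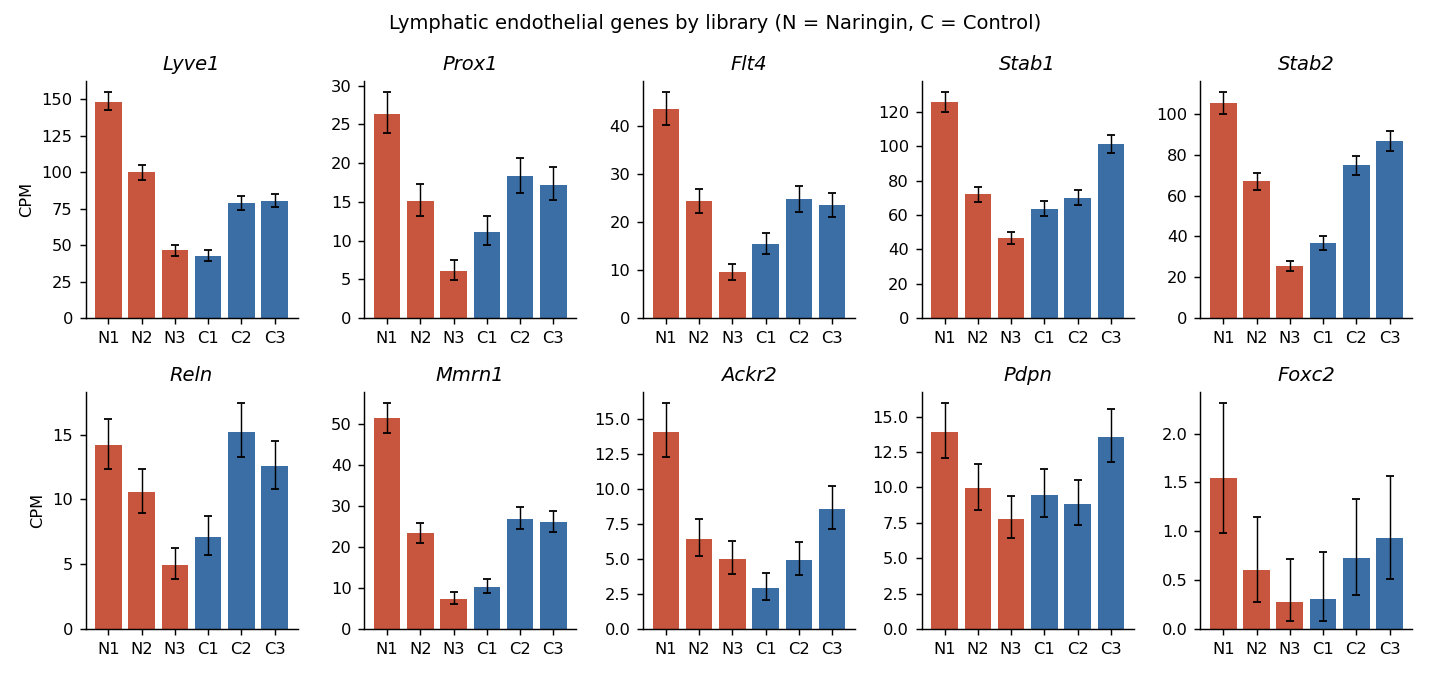
CPM of each of the 10 lymphatic endothelial genes in the 3 Naringin (N1 to N3) and 3 Control (C1 to C3) libraries, with bars for the value and lines for the exact 95% binomial interval of its reads. N1 is the tallest bar in 9 of 10 panels, and N3 and C1 are usually the shortest.

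Prox1, the homeobox factor that defines lymphatic endothelium, had 26.4, 15.2 and 6.09 CPM in Naringin 1, 2 and 3, against 11.2, 18.3 and 17.2 CPM in Control 1, 2 and 3. Its highest and lowest values were both in the Naringin group, whose mean of 15.9 ± 10.2 CPM was close to the 15.6 ± 3.85 CPM of Control (SD, n = 3 each). Foxc2, a forkhead factor needed for lymphatic valves, was the scarcest of the 10, with 23, 9 and 4 reads in Naringin 1, 2 and 3 and 4, 10 and 14 reads in Control 1, 2 and 3. That is 1.54, 0.601 and 0.280 CPM, against 0.306, 0.723 and 0.936 CPM. At this depth its exact 95% binomial interval ran from 0.977 to 2.31 CPM in Naringin 1 and from 0.0763 to 0.717 CPM in Naringin 3. Such intervals cover counting error only. The mean of 0.731 CPM over the 6 libraries kept Foxc2 below the 1 CPM required for testing, so the other 9 genes were tested.

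Flt4, the receptor VEGFR-3 that receives the lymphatic growth signal, stood at 43.6, 24.3 and 9.60 CPM in Naringin 1, 2 and 3, against 15.5, 24.7 and 23.5 CPM in Control 1, 2 and 3. Naringin 1 and Naringin 3 enclosed all Control values. The order of the libraries was nearly that of Prox1.

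Lyve1, a hyaluronan receptor related to CD44, had the highest mean CPM of the 10 over the 6 libraries, although Stab1 was above it in Naringin 3, Control 1 and Control 3. It had 148, 100.02 and 46.4 CPM in Naringin 1, 2 and 3, against 42.9, 79.0 and 80.5 CPM in Control 1, 2 and 3. Here Naringin 1 and Naringin 2 lay above every Control library, and Naringin 3 lay close to Control 1, with overlapping 95% intervals of 43.0 to 50.1 CPM and 39.4 to 46.6 CPM. The scavenger receptor Stab2 (stabilin-2), which also binds hyaluronan, had 105, 66.9 and 25.4 CPM in Naringin 1, 2 and 3, against 36.6, 74.7 and 86.7 CPM in Control 1, 2 and 3. Naringin 2 fell below Control 2 and Control 3 in this gene, unlike in Lyve1. Its relative Stab1 (stabilin-1) had 125, 72.0 and 46.7 CPM in Naringin 1, 2 and 3, against 63.7, 70.0 and 101 CPM in Control 1, 2 and 3, with Control 3 closest to Naringin 1.

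The secreted proteins gave the widest and one of the narrower ranges. Mmrn1 (multimerin 1), a matrix protein of lymphatic endothelium and platelets, had 51.4, 23.3 and 7.35 CPM in Naringin 1, 2 and 3, against 10.3, 27.0 and 26.1 CPM in Control 1, 2 and 3. Its highest value was 6.99 times its lowest. Reln (reelin), a glycoprotein first known from the brain that lymphatic endothelium also secretes, had 14.2, 10.5 and 4.97 CPM in Naringin 1, 2 and 3, against 7.11, 15.3 and 12.6 CPM in Control 1, 2 and 3. It was the only one of the 10 whose highest value was in a Control library, and its range was 3.07 times.

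Ackr2, the atypical receptor D6 that scavenges inflammatory chemokines, had 14.1, 6.41 and 4.97 CPM in Naringin 1, 2 and 3, against 2.91, 4.92 and 8.55 CPM in Control 1, 2 and 3. Control 1 was its lowest library, and Naringin 3 lay just above Control 2. Pdpn (podoplanin), a mucin-like membrane protein that binds the platelet receptor CLEC-2, varied least, with 13.9, 9.95 and 7.77 CPM in Naringin 1, 2 and 3, against 9.48, 8.82 and 13.6 CPM in Control 1, 2 and 3. The groups overlapped in both genes.

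Set per kilobase of exon, so that levels of different genes can be compared, Lyve1 led with a mean of 28.4 CPM per kb over the 6 libraries, followed by Stab1 at 7.76 and Stab2 at 7.53. Then came Pdpn at 5.83, Mmrn1 at 4.13, Flt4 at 2.86, Ackr2 at 2.23, Prox1 at 1.87, Reln at 0.454 and Foxc2 at 0.268 CPM per kb. Exon length was the union over all isoforms in GENCODE M21, which is long for Reln at 23738 bases and so lowers its value. Lyve1 was above Stab1, Prox1 above Reln and Reln above Foxc2 in all 6 libraries. Stab1 and Stab2 did not differ beyond their spread, with Stab1 higher in 3 of 6 libraries and a difference of 0.236 ± 1.41 CPM per kb (SD, n = 6). Stab2 and Pdpn, Pdpn and Mmrn1, Mmrn1 and Flt4, Flt4 and Ackr2, and Ackr2 and Prox1 also differed by less than 1 SD of the difference between them.

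No difference between the groups was found for any of the lymphatic genes. The values were tested as log2(CPM + 1) with limma across 14873 genes, so fold changes are on that scale and understate those of low genes. Of the 9 members tested, 0 passed a Benjamini-Hochberg adjusted p of 0.05, as did 0% of all genes tested. At an unadjusted p of 0.05, 0 of the 9 were higher and 0 lower with naringin, against 0.975% and 0.457% of all genes, that is 145 and 68 genes. Those counts depended on single libraries: they were 400 higher and 113 lower without Naringin 3, 398 and 993 without Control 3, 71 and 61 without Naringin 1, and 46 and 26 without Naringin 2. Without Naringin 3, Lyve1 had a log2 fold of 0.90 (limma unadjusted p = 0.0234, adjusted p = 0.9998). The edgeR and DESeq2 tests on recovered reads also called 0 of the 9, with 0% and 0.0202% of all genes called. At an unadjusted p of 0.05 these tests also took 0 of the 9, beside 1.56% and 1.53% of all genes. In 0 of the 9 were the groups fully separate with Naringin above, as in 3.36% of genes, or below, as in 2.29%. Of the 9, 4 had a log2 fold above 0, that is 44.4% against 56.7% of all genes. Their median log2 fold was -0.02, beside 0.02 for all genes tested.

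The largest log2 folds were 0.53 ± 0.42 for Ackr2 and 0.44 ± 0.41 for Lyve1 (limma SE, n = 3 each), with 95% intervals of -0.42 to 1.48 and -0.50 to 1.38. Both had a limma adjusted p of 0.9996. Reln had the lowest, -0.26 ± 0.38. The remaining folds ran from -0.15 ± 0.44 for Prox1 to 0.10 ± 0.63 for Mmrn1, with Flt4 at 0.07 ± 0.46, Stab2 at -0.13 ± 0.50, Stab1 at -0.03 ± 0.33 and Pdpn at -0.02 ± 0.25. These intervals are wide: that of Mmrn1 ran from -1.33 to 1.54, so differences within that range in either direction were not excluded. The extreme libraries set the sign of most folds. Without Naringin 1 the median of the 9 was -0.41 and without Naringin 3 it was 0.43, against 0.15 without Control 3.

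**Figure D2:**
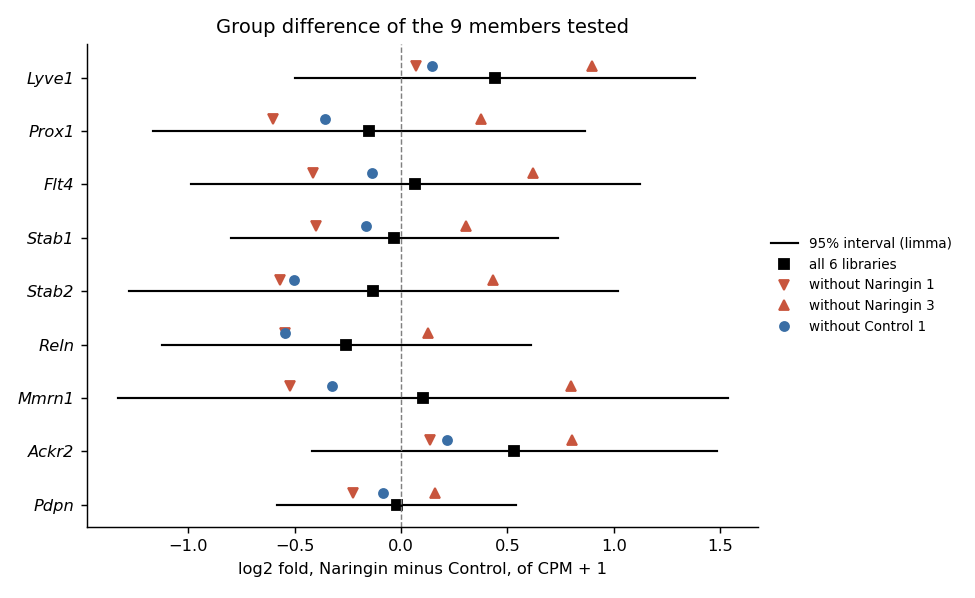
Log2 fold of CPM + 1, Naringin minus Control, for the 9 tested genes: squares use all 6 libraries, lines are limma 95% intervals, and coloured symbols leave out Naringin 1, Naringin 3 or Control 1. All 9 intervals include 0, and 7 of the 9 folds change sign among the values drawn.

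The spread, unlike the mean, was larger in the Naringin group for every tested member. The SD of log2(CPM + 1) over the 3 libraries was larger in Naringin than in Control in 9 of 9, whereas this held for 33.9% of all genes tested. The median SD of the 9 was 0.842 in Naringin and 0.508 in Control. Over all genes the medians were 0.145 in Naringin and 0.240 in Control, the group that holds Control 3, which stood apart from the other libraries. The contrast was widest for Flt4, at 1.04 in Naringin and 0.354 in Control, and for Prox1, at 0.982 and 0.363. With 3 libraries a group, and 1 high and 1 low library in Naringin, this describes these samples and was not tested. The 9 members also varied together, so they are not 9 separate observations.

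Most lymphatic genes were also among the more variable genes of the node. Among the 11484 genes that averaged 5 CPM or more and were seen in all 6 libraries, the median ratio of highest to lowest library was 1.47. The ratio was 6.99 for Mmrn1, reached or passed by 0.331% of those genes. It was 4.84 for Ackr2, 4.54 for Flt4, 4.33 for Prox1, 4.14 for Stab2 and 3.46 for Lyve1, reached by 0.749% to 2.2%. Stab1 at 2.69 and Reln at 3.07 were reached by 5.15% and 3.02%. Pdpn, at 1.79, was matched by 23.5% and so was the least variable.

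The 9 tested genes formed 36 pairs, and every pair was positively correlated over the 6 libraries. Pearson's r of log2(CPM + 1) had a median of 0.885, with 23 pairs at 0.8 or more and 16 at 0.9 or more. By the exact permutation test over 720 pairings, 2-sided, 22 pairs had a p under 0.05 and 18 an adjusted p under 0.05 over the 36 pairs, whereas 0 pairs did by Spearman's rho. For comparison, an r of at least 0.8 was reached by 7.5% of all tested genes with Lyve1, 6.33% with Prox1, 7.47% with Flt4, 8.08% with Stab1, 7.19% with Stab2, 4.57% with Reln, 7.46% with Mmrn1, 6.41% with Ackr2 and 7.69% with Pdpn. Lyve1 and Prox1 each reached it with 6 of the 8 other members, or 75%. Other members did so less often. Pdpn reached it with Stab1 alone, Ackr2 with Lyve1, Stab1 and Mmrn1, and Reln with Prox1, Flt4, Stab2 and Mmrn1. The median r with the 8 others was 0.773 for Pdpn and 0.772 for Ackr2. The 9 genes had been brought together as a lymphatic list, with earlier results of these data known.

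Prox1, Flt4, Stab2 and Mmrn1 were the tightest set, with r from 0.952 to 0.984 in their 6 pairs. Prox1 and Mmrn1 ranked the libraries identically, with r = 0.971 (exact permutation p = 0.00139, the smallest that 720 pairings give, adjusted p = 0.0286) and rho = 1.00 (exact permutation p = 0.00278, adjusted p = 0.0667). Their r was 0.974 without Naringin 1 and Naringin 3. Prox1 and Flt4 had r = 0.984 (exact permutation p = 0.00417, adjusted p = 0.0286) and rho = 0.943 (exact permutation p = 0.0167, adjusted p = 0.0667), and r = 0.933 without the same libraries. Reln was also close to Prox1, with r = 0.945 (exact permutation p = 0.00556, adjusted p = 0.0286) and rho = 0.943 (exact permutation p = 0.0167, adjusted p = 0.0667), and r = 0.987 without the same libraries. Its r was 0.958 with Stab2 and 0.930 with Mmrn1. Without Naringin 3 and Control 1, the libraries with the lowest values, these were 0.502 and 0.506. A different pair of libraries was left out for Prox1, so its 0.987 cannot be set against them.

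Stab1 and Pdpn formed a second pair, both high in Control 3 as well as in Naringin 1, with r = 0.962 (exact permutation p = 0.00556, adjusted p = 0.0286) and rho = 0.943 (exact permutation p = 0.0167, adjusted p = 0.0667). It kept r = 0.941 without Naringin 1 and Naringin 3. Lyve1 was closest to Mmrn1, with r = 0.948 (exact permutation p = 0.0167, adjusted p = 0.0375) and rho = 0.714 (exact permutation p = 0.136, adjusted p = 0.189), and r = 0.905 without Naringin 1 and Control 1. The lowest r of all pairs was between Ackr2 and Reln: their r was 0.576 (exact permutation p = 0.247, adjusted p = 0.247) and rho 0.314 (exact permutation p = 0.564, adjusted p = 0.564), and r was 0.0863 without Naringin 3 and Control 1. Foxc2, with its few reads, had r from 0.820 to 0.953 with the 9 others, given as a description.

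**Figure D3:**
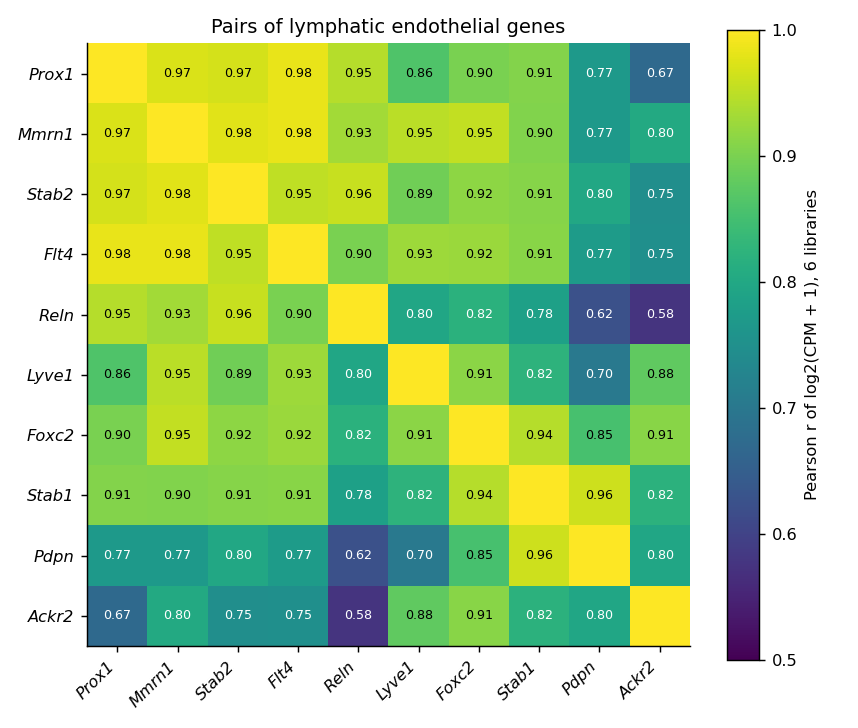
Pearson's r of log2(CPM + 1) over the 6 libraries for each pair of the 10 lymphatic endothelial genes, on a colour scale from 0.5 to 1. Prox1, Mmrn1, Stab2 and Flt4 share the highest values, and Ackr2 and Pdpn have the lowest with the other genes.

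The shared pattern was also measured without the groups and without single libraries. On values centred on the group means, the median r of the 36 pairs was 0.913, with 30 pairs at 0.8 or more. Leaving out the 2 libraries farthest from the median of the first gene gave a median r of 0.82 with 20 pairs at 0.8 or more and 1 pair below 0. Without Naringin 1 there were 18 such pairs, without Naringin 3 there were 25 and without Control 3 there were 28. Naringin 1 was the highest library in 8 of the 9 tested members, against 19.4% of all genes tested, and Naringin 3 the lowest in 7, against 14%. Naringin 1 as the highest library with Naringin 3 and Control 1 as the lowest pair was found in 6 of 9, against 5.12% of all genes. The libraries counted here were picked from the members' own values, so an excess over all genes was set in advance.

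The promoters of the 4 tightest genes are shown because these genes moved together most closely. The windows come from RefSeq (GRCm38.p6) and run from 250 bases before to 50 bases after the annotated start, and 8 of the 10 genes matched. They lie at chr1:190170778-190171077 on the minus strand (Prox1), chr11:49609429-49609728 on the plus strand (Flt4), chr10:87007893-87008192 on the minus strand (Stab2) and chr6:60944067-60944366 on the plus strand (Mmrn1), each 5′ to 3′ in the gene's direction. For Prox1, which has more than 1 start in that table, the most upstream was taken. These coordinates are of the RefSeq table's build, not of the build mm39 named for the reads. Capitals mark GGAA and its reverse complement TTCC, the core bound by ETS factors, a family active in endothelium.
Prox1 promoter: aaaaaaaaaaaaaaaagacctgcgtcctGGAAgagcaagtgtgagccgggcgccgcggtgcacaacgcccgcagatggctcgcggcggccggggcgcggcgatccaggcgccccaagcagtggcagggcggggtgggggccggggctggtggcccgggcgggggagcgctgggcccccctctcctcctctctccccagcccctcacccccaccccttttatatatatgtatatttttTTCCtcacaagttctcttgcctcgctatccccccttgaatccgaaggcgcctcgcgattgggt
Flt4 promoter: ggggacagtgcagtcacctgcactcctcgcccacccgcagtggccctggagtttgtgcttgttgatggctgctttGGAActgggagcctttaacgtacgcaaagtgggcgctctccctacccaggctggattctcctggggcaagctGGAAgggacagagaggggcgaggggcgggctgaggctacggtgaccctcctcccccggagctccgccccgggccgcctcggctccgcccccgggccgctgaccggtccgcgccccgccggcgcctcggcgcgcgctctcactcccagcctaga
Stab2 promoter: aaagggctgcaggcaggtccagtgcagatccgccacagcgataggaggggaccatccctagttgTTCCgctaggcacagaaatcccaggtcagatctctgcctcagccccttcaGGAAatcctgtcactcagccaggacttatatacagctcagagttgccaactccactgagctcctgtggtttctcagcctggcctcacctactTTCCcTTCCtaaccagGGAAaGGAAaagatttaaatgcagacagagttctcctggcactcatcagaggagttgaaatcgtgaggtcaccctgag
Mmrn1 promoter: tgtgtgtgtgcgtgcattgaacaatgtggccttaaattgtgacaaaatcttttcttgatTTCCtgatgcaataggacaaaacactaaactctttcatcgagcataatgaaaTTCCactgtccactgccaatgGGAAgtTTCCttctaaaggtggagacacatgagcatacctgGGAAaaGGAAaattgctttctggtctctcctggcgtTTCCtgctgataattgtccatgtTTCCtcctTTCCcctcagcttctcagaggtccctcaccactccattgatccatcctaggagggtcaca

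Prox1 and Flt4 held 2 matches each, Stab2 held 6 and Mmrn1 held 9, and all 8 windows found had at least 1. So did 96% of 27025 promoters of that length, 1 per gene, where the median was 3 matches. On both strands, AACAAT was found only in Mmrn1 among the 8 (10.9% of all promoters), ACAAAG in Ackr2 and Pdpn (18.7%), TGTTTAC in Pdpn (3.52%), TATAAA in Prox1 (14.2%) and AGATAA in 0 (11.4%). The tight set also differed in base composition, from 44.3% G and C in Mmrn1 and 53.0% in Stab2 to 64.3% in Prox1 and 70.3% in Flt4, beside a median of 52.7% for all promoters. No motif searched was thus shared by these 4 genes other than the common ETS core.

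Within the shared pattern, the balance between members differed in some pairs, which was looked at after the values were seen. The log2 ratio of Lyve1 to Prox1 was 2.49, 2.72 and 2.93 in Naringin 1, 2 and 3, against 1.94, 2.11 and 2.22 in Control 1, 2 and 3. Every Naringin library exceeded every Control library, with means of 2.715 ± 0.219 in Naringin and 2.092 ± 0.142 in Control (SD, n = 3 each). The difference was 0.62 with a counting error of 0.0953, which leaves out the spread between libraries. Of all genes, 0.78% had a ratio to Prox1 that was higher in every Naringin library in this way, and 0.0673% one that was lower. Lyve1 was likewise higher relative to Stab2, at 0.50, 0.58 and 0.87 in Naringin 1, 2 and 3 against 0.23, 0.08 and -0.11 in Control 1, 2 and 3. It was also higher relative to Reln, by 0.74 on the log2 scale. Seen from Lyve1, 1.67% of genes had a ratio to it that was lower in every Naringin library and 0.0135% one that was higher. A gene at a constant level cannot give a separated ratio to Prox1 or Lyve1, since the groups overlap in both. These shares over all genes thus do not show how often this occurs among genes that follow Prox1 or Lyve1. With 3 against 3 libraries an exact permutation test cannot go below p = 0.10, and a ratio does not depend on library scaling.

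In all, 6 of the 36 ratios were apart between the groups, 3 of them among the 8 that involve Lyve1. For a single ratio, being apart in either direction has an exact permutation p of 0.10. The 36 ratios also share 9 genes, so the count is a description and was not tested. The Flt4 gene was higher relative to Prox1 in the Naringin libraries. The log2 ratio of Prox1 to Flt4 averaged -0.69 ± 0.03 in Naringin and -0.45 ± 0.02 in Control (SD, n = 3 each). The difference was -0.24 with a counting error of 0.113. Both SDs were smaller than this counting error, so they understate the uncertainty of the ratio. The other 2 ratios involved Ackr2, which was higher relative to Stab1 by 0.66 (the log2 ratio of Stab1 to Ackr2 differed by -0.66) and relative to Pdpn by 0.65. Of all genes, 0.00673% had a ratio to Ackr2 that was higher in every Naringin library and 2.56% one that was lower. The groups overlapped in Ackr2 as well, so these shares have the same limit. The ratios of Prox1 to Stab2, Reln and Mmrn1 overlapped between the groups.

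**Figure D4:**
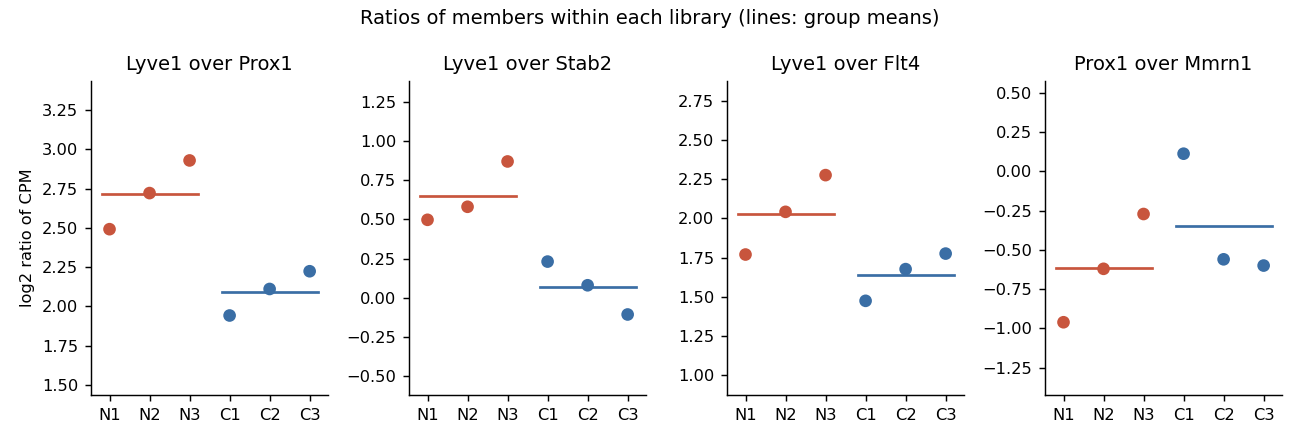
Log2 ratio of CPM between members within each Naringin (N1 to N3) and Control (C1 to C3) library, with lines at the group means and an axis 2 log2 units high in each panel. The ratio of Lyve1 to Prox1 and of Lyve1 to Stab2 is higher in all Naringin libraries, whereas that of Lyve1 to Flt4 and of Prox1 to Mmrn1 overlaps.

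Other genes of lymphatic endothelium and of the node's sinuses followed the same libraries. Of 29 tested genes of that list, 12 had an r of at least 0.8 with Lyve1 and 11 with Prox1, that is 41.4% and 37.9%, against 7.5% and 6.33% of all genes. Between the groups 0 of the 29 passed, 20 were higher and 9 lower with naringin, and the median log2 fold was 0.08. The chemokine Ccl20 had the smallest p of the list, with 5.23, 3.00 and 1.12 CPM in Naringin 1, 2 and 3 against 0.306, 0.361 and 2.07 CPM in Control 1, 2 and 3. Its log2 fold of 1.09 ± 0.46 did not pass (limma adjusted p = 0.9996) and its groups overlapped. Nr2f2, the orphan nuclear receptor COUP-TFII that induces Prox1, had 41.1, 28.9 and 25.7 CPM in Naringin 1, 2 and 3 against 20.7, 25.4 and 23.0 CPM in Control 1, 2 and 3. All its Naringin values were above all Control values, with a log2 fold of 0.43 ± 0.19, and Angpt2, a ligand of the Tie receptors, was alike at 0.31 ± 0.17. These 2 of the 29 were separate in this way, as were 3.36% of all genes. The most abundant gene of the list, Ccl21a, a chemokine that both lymphatic endothelium and reticular cells make, did not share the pattern, with r = 0.04 with Lyve1 over the 6 libraries.

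The lymphatic growth pathway gave 32 tested genes, of which 0 passed, 25 were higher and 7 lower in the Naringin group. Of all genes tested, 56.7% were higher. Several genes, such as Nr2f2, Itga9 and Efnb2, are in both this list and the one before, and Kdr is also in the pan-endothelial list. The lists are thus not independent of each other. The median log2 fold was 0.08. An r of at least 0.8 was found for 10 with Lyve1 and 11 with Prox1, that is 31.2% and 34.4%. The growth factor Vegfc, ligand of Flt4 and picked for that role with the values known, had 6.50, 4.07 and 2.10 CPM in Naringin 1, 2 and 3 against 4.59, 2.96 and 4.14 CPM in Control 1, 2 and 3, so its groups overlapped. Gja1, a gap junction protein of lymphatic valves, had the smallest p, with a log2 fold of 0.48 ± 0.18 (limma adjusted p = 0.9996) and all Naringin values above all Control values. That separation was found in 3 of the 32, Gja1 and again Nr2f2 and Angpt2, and in 3.36% of all genes. Kdr (VEGFR-2, the other receptor of this family on lymphatic endothelium) and the valve factor Gata2, both picked after their values were seen, had r of 0.97 and 0.96 with Lyve1. The list's median r with Lyve1 was 0.747. Some of its genes went the other way: Celsr1 had the lowest r with Lyve1, -0.68, and Piezo1 and Rasa1 had -0.34 and -0.12. Nfatc1 and S1pr1, which lymphocytes also make, had r of -0.41 and -0.36 with Lyve1.

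Genes of other cell types moved with the lymphatic genes. Of 20 macrophage genes tested, 7 (35%) had an r of at least 0.8 with Lyve1 and 9 (45%) with Prox1. These shares were 41.4% and 37.9% in the other lymphatic and sinus genes, and 7.5% and 6.33% of all genes. Naringin 1 was highest in 13 (65%) and Naringin 3 lowest in 18 (90%) of the macrophage genes. The same held for 88.9% and 77.8% of the 9 tested lymphatic genes, and 19.4% and 14% of all genes. The summed level of the macrophage list was 1876 to 5918 CPM in Naringin and 2630 to 4916 CPM in Control. None of the 22 listed was at 0 in all libraries, although Vsig4 had at most 0.0700 CPM and Cd163 at most 1.34 CPM. The sinus receptor Marco had 913, 610 and 303 CPM in Naringin 1, 2 and 3 against 339, 437 and 733 CPM in Control 1, 2 and 3, and r = 0.92 with Lyve1. Cd209b, a lectin of sinus macrophages, had r = 0.95 with Lyve1 and 0.96 with Prox1. The part of macrophages in the levels of Lyve1 and Stab1 was not tested.

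The reticular stromal list summed to 2214 to 3277 CPM in Naringin and 2003 to 3248 CPM in Control. Of its 16 genes, 6 (37.5%) had an r of at least 0.8 with Lyve1 and 3 (18.8%) with Prox1, against 7.5% and 6.33% of all genes. Pan-endothelial and blood endothelial genes did so in 3 and 4 of 20, with a sum of 1089 to 1503 CPM in Naringin and 979 to 1352 CPM in Control. High endothelial venule genes, of which Madcam1 and Ltbr are also in the reticular list, did so in 3 and 1 of 11. There Ackr1 was listed at 0 throughout, and the sums were 941 to 1329 CPM in Naringin and 640 to 948 CPM in Control. Platelet and megakaryocyte genes did so in 1 and 1 of 6. Naringin 3 was nevertheless the lowest library in 5 of the 6, and the list's median r with Prox1 was 0.687. Itga2b, the platelet integrin that another list here holds too, had r of 0.88 with Lyve1 and 0.75 with Prox1, and Clec1b, the receptor CLEC-2 that binds podoplanin, had 0.78 and 0.86. The platelet chemokine Pf4 was at 1.82 to 4.96 CPM in Naringin and 2.31 to 9.33 CPM in Control, with r = 0.30 with Prox1. Sums there were 65.6 to 142 CPM in Naringin and 73.7 to 141 CPM in Control, mostly Itga2b and Vwf.

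Of the fat, skin and lymphocyte genes tested, 0 of 11, 0 of 2 and 0 of 5 had an r of at least 0.8 with either Lyve1 or Prox1. Adipocyte genes shared the low end in Naringin 3, which was lowest in 6 of 11 (54.5%, against 14% of all genes), but not that in Control 1, which was highest in 7: the adipocyte protease Cfd stood at 1.75 CPM in Naringin 3 and 24.6 CPM in Control 1. The adipocyte list summed to 213 to 327 CPM in Naringin and 245 to 397 CPM in Control. The keratinocyte list summed to at most 4.62 CPM in Naringin and 5.43 CPM in Control, with Dsg3 at 0. None of these other lists had a member past the limma threshold, and their median log2 folds ran from -0.37 for adipocyte genes to 0.23 for high endothelial venule genes.

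**Figure D5:**
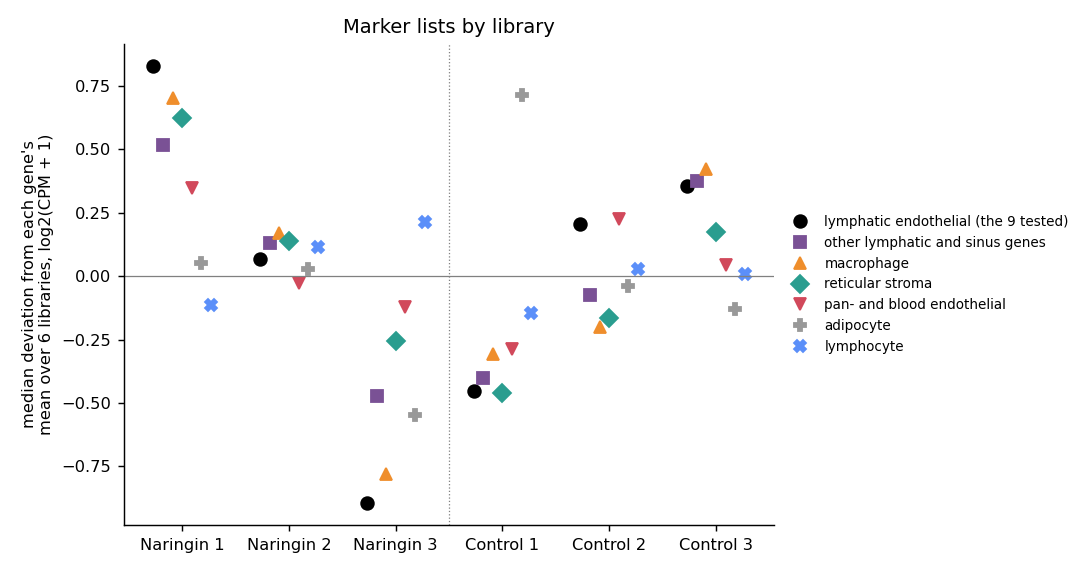
Median over each marker list of a gene's deviation from its own mean over the 6 libraries, in log2(CPM + 1), for the 3 Naringin and 3 Control libraries. The 9 tested lymphatic genes run from 0.83 in Naringin 1 to -0.89 in Naringin 3, the macrophage genes from 0.70 to -0.78, and the adipocyte genes are instead highest in Control 1.

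Beyond the lists, the genes whose pattern was most like that of Lyve1 were Nceh1, Gpr182, Abcc9, Scara3 and Flrt3, with r from 0.99 to 0.997 over the 6 libraries. They came from 1928 genes averaging 10 CPM or more with an SD of at least 0.3 on the log2 scale. Those most like Prox1 were Col12a1, Wls, Stard8, Frmd4b and Man1c1, with r from 0.98 to 0.99. Gpr182, for example, had 32.4, 25.04 and 14.5 CPM in Naringin 1, 2 and 3 against 14.8, 22.3 and 22.5 CPM in Control 1, 2 and 3, with Naringin 1 highest and Naringin 3 and Control 1 as the lowest pair, as for Lyve1. These are the highest of many correlations over few libraries and are given as a description.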

How the data were processed

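RNA from 6 lymph node samples (1 µg each, RNeasy column, NEBNext Ultra kit, per the labels' protocols) was sequenced. Per the submitters' processing notes, genome build mm39 was used with STAR 2.7.9a, Trimmomatic 0.39, featureCounts (Subread 1.6.0) and edgeR 3.40.0. For the annotation, the strand setting and shared reads the sources used here state nothing; overlapping genes cannot be told apart. The authors deposited CPM with no further scaling, since each column summed to 1000000. All values above 0 (100%) were whole multiples of 1 read within 0.01 of a read, which gave the reads per library.

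Of 28727 genes with a read, the 14873 that averaged 1 CPM or more were tested on log2(CPM + 1) with limma 3.58.1 in R 4.3.3 (trend, robust, 2-sided, Benjamini-Hochberg over all genes). Counts recovered from the deposited CPM were tested with DESeq2 1.42.0 and with edgeR 4.0.16 (TMM, quasi-likelihood). On simulated reads for this comparison (14873 genes), limma recovered 75% of 2-fold and 100% of 4-fold changes with 12 calls among unchanged genes. The changes were planted in genes averaging 10 CPM or more, each with its own variability. The members varied more, with a median SD in Naringin of 0.842 against 0.145 for all genes, so these rates do not hold for them. Pearson's r and Spearman's rho were tested by exact permutation of the libraries. The labels name no batch. The members and lists were chosen with earlier results of these data known. All members are named, with the 3 smallest p and 3 highest means of other lists as candidates and a few others picked after their values were seen. For likeness to Lyve1 and Prox1 the 5 highest r were taken, leaving out Gm, Rik and LOC names. Alternatives were other pseudocounts, filters, scalings and tests, a replicate block and leaving out each library.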

Additional observations from a re-analysis of the deposited data

How the results depend on the processing

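Under the other pseudocounts, filters and scalings and limma without trend, the number of genes called stayed at 0, and DESeq2 called 3, none of them lymphatic. Leaving out each library gave 0 to 1 genes called (the 1 without Control 3), a median log2 fold of the 9 tested members of -0.41 to 0.43, 18 to 32 pairs with r of at least 0.8 and a median r of 0.81 to 0.943. Log2 folds that changed sign on leaving out a library ran from -0.60 to 0.37 for Prox1, -0.41 to 0.62 for Flt4, -0.40 to 0.31 for Stab1, -0.57 to 0.43 for Stab2, -0.55 to 0.13 for Reln, -0.52 to 0.80 for Mmrn1 and -0.22 to 0.16 for Pdpn. Those of Lyve1 (0.07 to 0.90) and Ackr2 (0.14 to 0.86) kept their sign. Prox1 turned to 0.0209 in edgeR and 0.0079 in DESeq2, and Stab1 to 0.0392 in edgeR and 0.0266 in DESeq2. The cause was not tested. Same-numbered libraries had correlations of deviations from their group means of -0.26, -0.02 and -0.27. Deviations within a group of 3 sum to 0, so these values cannot exclude a pairing by replicate number. The fit with a replicate block called 0 genes and left the median at -0.02. The difference in the ratio of Lyve1 to Prox1 was 0.51 to 0.73 on leaving out a library and 0.59 with a pseudocount of 1, alternatives chosen after seeing the data. With 4 reads in each of 2 libraries, depth limits what can be said of Foxc2.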
